A study of Mus musculus with 6 samples.

Results

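Ifi44, Ifi44l, Ifi35, Nmi, Rbm43 and Samd9l, a set of interferon-induced genes whose products are less studied than the classical antiviral effectors, were followed across 6 whole-transcript mouse arrays. They were chosen by name through the array annotation, and the choice used the log2 levels on these arrays and their change with interferon-beta (IFN-β), so levels and changes of the set are described here without a test. Of the 6 genes listed, 5 had a probe set (1 each), out of 19938 genes measured through probe sets that name a single gene. Ifi44 was not analysed here, because the annotation table used names no probe set for it. The RNA came from established mouse lines: NIH3T3 fibroblasts (of embryonic origin), L929 fibroblasts (from connective tissue) and RAW264.7 macrophages. Each line was left unstimulated or was stimulated with IFN-β for 4 h, and each combination had 1 array. No dose is stated in the labels. The series asked which genes are transcriptionally regulated by IFN-β.

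Type I interferons bind the receptor subunits Ifnar1 and Ifnar2, whose kinases Jak1 and Tyk2 phosphorylate Stat2. Stat2 and Irf9 are subunits of ISGF3, a transcription factor that binds interferon-stimulated response elements in the promoters of induced genes. Ifi44 and Ifi44l are paralogues with a GTPase-like domain. Ifi35 and Nmi share a protein interaction domain, bind each other, and can be released from cells as danger signals. Nmi was first described as a partner of N-Myc and also binds Stat proteins. Rbm43 carries an RNA recognition motif, and Samd9l is a large cytoplasmic protein that restricts poxviruses and in which mutations cause disease of blood-forming cells. In the RefSeq gene table (GRCm38.p6) Ifi44 and Ifi44l are neighbours on chromosome 3, and Rbm43 and Nmi on chromosome 2, with no other protein-coding gene between them.

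The promoter windows show where sequences of the kind bound by ISGF3 and by Stat dimers lie relative to the start of each gene. Windows ran from 250 bases before to 50 bases after the RefSeq start (GRCm38.p6), and all 6 genes had one, Rbm43 a second. A pair of cores was searched on both strands. The core of the interferon-stimulated response element was GAAA, then 2 bases of any kind, then GAAA. That of the gamma-activated site, which Stat dimers bind, was TTCNNNGAA, which reads the same on both strands. A shorter form of the first core, GAAANNGAA, which every match of the full core contains, was added after the sequences had been seen. The 4 windows below are those of measured genes that hold a match, each 5′ to 3′ on the strand of the gene (plus for Ifi35, minus for the others), with the matches in capitals. They lie at chr2:51935114-51935413 for Rbm43, chr11:101448162-101448461 for Ifi35, chr3:151762842-151763141 for Ifi44l and chr6:3399522-3399821 for Samd9l.
Rbm43: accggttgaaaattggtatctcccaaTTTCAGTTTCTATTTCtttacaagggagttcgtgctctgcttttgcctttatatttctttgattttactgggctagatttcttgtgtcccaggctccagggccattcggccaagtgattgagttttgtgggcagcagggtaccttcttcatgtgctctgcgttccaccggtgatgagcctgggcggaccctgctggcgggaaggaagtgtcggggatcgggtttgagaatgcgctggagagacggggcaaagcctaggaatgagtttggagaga
Ifi35: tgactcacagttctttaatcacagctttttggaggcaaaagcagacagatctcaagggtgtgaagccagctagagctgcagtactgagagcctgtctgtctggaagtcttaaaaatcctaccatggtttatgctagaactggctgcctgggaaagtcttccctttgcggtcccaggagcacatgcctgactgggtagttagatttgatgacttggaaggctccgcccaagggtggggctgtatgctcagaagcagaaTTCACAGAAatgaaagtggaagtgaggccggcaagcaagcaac
Ifi44l: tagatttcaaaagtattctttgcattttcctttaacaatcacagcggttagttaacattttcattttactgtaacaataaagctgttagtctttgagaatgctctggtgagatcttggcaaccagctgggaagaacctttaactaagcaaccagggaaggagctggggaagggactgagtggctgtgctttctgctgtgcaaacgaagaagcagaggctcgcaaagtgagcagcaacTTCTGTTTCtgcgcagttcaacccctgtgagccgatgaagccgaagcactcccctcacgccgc
Samd9l: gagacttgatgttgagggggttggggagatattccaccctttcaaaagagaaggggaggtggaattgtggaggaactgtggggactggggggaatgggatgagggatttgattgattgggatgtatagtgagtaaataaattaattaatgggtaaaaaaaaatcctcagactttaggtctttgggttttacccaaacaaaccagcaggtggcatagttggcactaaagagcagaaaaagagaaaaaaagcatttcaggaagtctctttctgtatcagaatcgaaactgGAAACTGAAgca

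Rbm43 alone of the 6 genes had a match of the full response element core. Its first window held 2 overlapping matches on the opposite strand, from position -224 to -215 and from -218 to -209 counted from the first transcribed base as 1, and its second window held none. Among all 32851 windows of this length 3.44% held this core. Ifi35 alone had a match of TTCNNNGAA, from position 8 to 16, and 8.3% of all windows held one. GAAANNGAA was found in 4 of the 6 genes (4 of their 7 windows), against 9.76% of all genes and 8.56% of all windows. In Ifi44l it lay from -13 to -5 and in Samd9l from 39 to 47, and the others were Rbm43 and Ifi44. The Nmi window held none of the 3 cores. These are matches of letters in a short window, and binding was not measured.

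The labelled cell types were checked on the unstimulated arrays. The median log2 level of 8 macrophage markers, among them Lyz2, Tyrobp and Cd68, was 10.93 in RAW264.7, while NIH3T3 had 4.50 and L929 had 4.37. For 8 fibroblast markers, among them Col1a1 and Sparc, it was 4.90 in RAW264.7, with 10.83 for NIH3T3 and 9.43 for L929. The fibroblast markers Thy1 and Dcn were high in NIH3T3 only (10.45 and 10.82). In L929 they were at 4.96 and 3.41, beside 5.11 and 3.47 in RAW264.7. The rest were higher in both fibroblast lines than in RAW264.7. Medians of 4 epithelial and 4 lymphocyte markers lay between 3.99 and 4.65 on these arrays. The array of stimulated NIH3T3 was set apart by its scale, with a median level of 5.49 where the other 5 lay between 5.07 and 5.22. The median log2 change over all genes was 0.17 in NIH3T3, with -0.05 for L929 and -0.03 for RAW264.7. With 1 array per group there is no spread between replicates, so no 2 neighbouring levels in the orders below can be told apart by a test.

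Samd9l had the largest mean change of the set. Its log2 level went from 5.44 to 9.43 in NIH3T3, from 4.47 to 10.01 in L929 and from 6.74 to 8.62 in RAW264.7. All 3 stimulated arrays were above all 3 unstimulated ones. In bulk RNA, more cells that respond and more RNA per cell cannot be told apart. The increase was 15.8-fold (NIH3T3), 46.3-fold (L929) and 3.69-fold (RAW264.7). The mean log2 change was 3.80 ± 1.83 (SD, n = 3 lines). The order of the lines was turned over by stimulation: RAW264.7 was the highest of the unstimulated arrays, by 1.30 over NIH3T3 and 2.27 over L929, and the lowest of the stimulated ones, by 0.80 and 1.38 on the log2 scale. With centred arrays this order held, with a step of 0.38 to NIH3T3. Unstimulated L929 was 0.69 above the lower quartile of its array, so that its fold starts from a low signal.

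Ifi35, the partner of Nmi, came to close levels in all lines. Its log2 level went from 6.49 to 9.75 in NIH3T3, from 6.34 to 9.53 in L929 and from 8.05 to 9.70 in RAW264.7. The 3 stimulated arrays lay within 0.22 of each other (0.38 with centred arrays), whereas the unstimulated arrays spanned 1.71, with RAW264.7 on top. The increase was 9.59-fold (NIH3T3), 9.11-fold (L929) and 3.15-fold (RAW264.7). The mean log2 change was 2.70 ± 0.91 (SD, n = 3 lines).

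In Nmi, the partner of Ifi35, the lines stayed apart after stimulation. Its log2 level went from 5.34 to 6.44 in NIH3T3, from 4.98 to 7.65 in L929 and from 7.45 to 8.61 in RAW264.7. Stimulated NIH3T3 stayed 1.01 below unstimulated RAW264.7, and stimulated L929 passed it by 0.20. The arrays of the lines spanned 2.47 before and 2.17 after stimulation, and 2.57 and 2.60 with centred arrays. After quantile normalization they spanned 2.37 and 2.19. With IFN-β Nmi was 2.14-fold (NIH3T3), 6.35-fold (L929) and 2.24-fold (RAW264.7) higher, with a mean log2 change of 1.64 ± 0.89 (SD, n = 3 lines).

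Rbm43, the neighbour of Nmi, had the smallest mean change of the set, 1.35 ± 0.92 on the log2 scale (SD, n = 3 lines). Its log2 level went from 6.88 to 8.03 in NIH3T3, from 6.79 to 9.15 in L929 and from 8.07 to 8.62 in RAW264.7. Unstimulated NIH3T3 and L929 were 0.09 apart. The increase was 2.21-fold (NIH3T3), 5.11-fold (L929) and 1.46-fold (RAW264.7), the last of rank 638 among all genes counted from the largest increase. Stimulated NIH3T3 was 0.05 below unstimulated RAW264.7, and 0.44 below it with centred arrays. After quantile normalization the order was reversed, with unstimulated RAW264.7 minus stimulated NIH3T3 at -0.06, so these arrays had no settled order. Side by side, Rbm43 and Nmi had log2 changes of 1.15 and 1.10 for NIH3T3, of 2.35 and 2.67 for L929, and of 0.54 and 1.16 for RAW264.7. Both changed most in L929. In NIH3T3, on the array with the shifted scale, the changes became 0.88 and 0.83 when each array was centred on its median, below 2-fold. After quantile normalization they were 1.16 for Rbm43, above 2-fold, and 0.97 for Nmi, below it.

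Ifi44l differed from the other 4 genes in NIH3T3, where it was not higher with IFN-β. Its log2 levels there were 4.22 unstimulated and 3.92 stimulated, a change of -0.30, or -0.57 with centred arrays. Both are low signals: the lower quartile of the array was 3.79 unstimulated and 4.10 stimulated. The change lay inside the 1st to 99th percentile range of all genes in that line, -0.73 to 1.13. In L929 the levels were 3.72 and 7.66, a 15.4-fold increase, and in RAW264.7 8.86 and 11.64, a 6.84-fold increase. The mean log2 change was 2.14 ± 2.19 (SD, n = 3 lines), an SD as large as the mean. Unstimulated L929 was 0.07 below the lower quartile of its array, so that the fold there is approximate. The level in RAW264.7 before stimulation was above that of L929 after it, by 1.20. The lines spanned 5.14 unstimulated and 7.72 stimulated, with RAW264.7 on top and NIH3T3 at the bottom after stimulation.

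**Figure D1:**
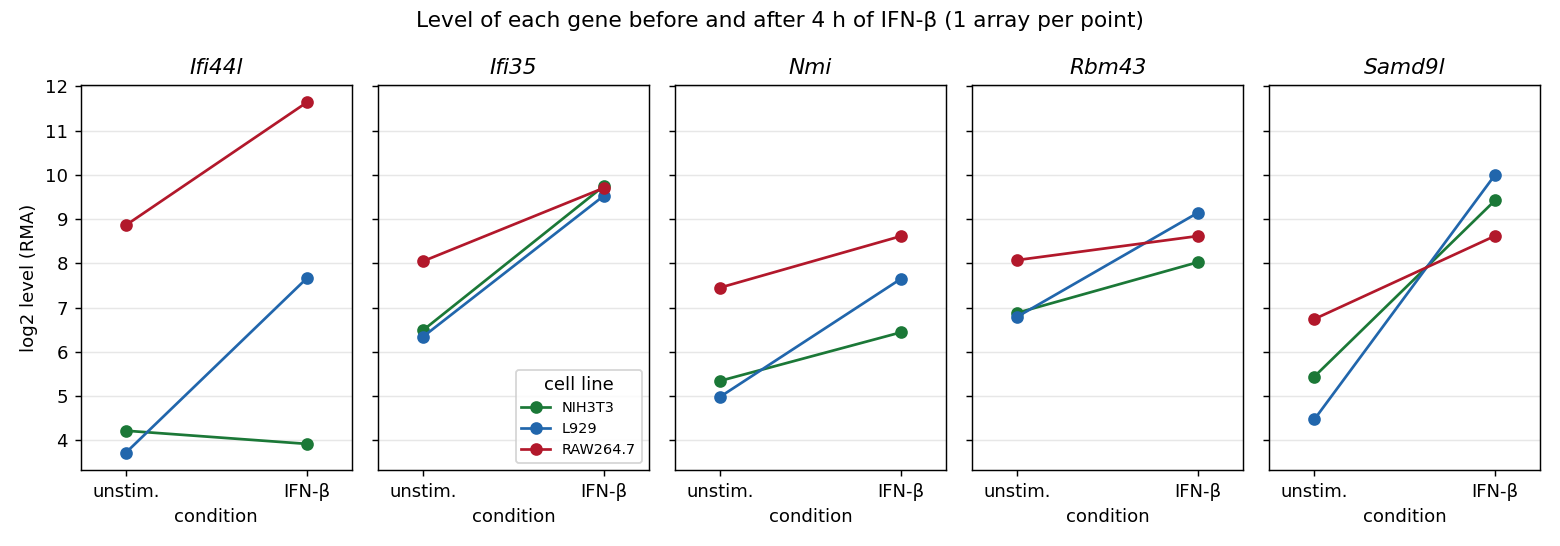
Log2 level (y axis) of the 5 measured genes in unstimulated and IFN-β-stimulated arrays (x axis), 1 array per point, with a line joining the pair of each cell line. Ifi35 meets within 0.22 after stimulation as deposited, Samd9l changes its order of lines, and Ifi44l in NIH3T3 stays near 4.

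Before stimulation all 5 genes had the same order of lines, L929 lowest, NIH3T3 next and RAW264.7 highest, an order that 16.4% of all genes showed. The step from L929 to RAW264.7 ran from 1.28 for Rbm43 to 5.14 for Ifi44l on the log2 scale, and that from L929 to NIH3T3 from 0.09 for Rbm43 to 0.97 for Samd9l. As deposited, the range between the lines was smaller after stimulation for 4 of the 5 genes, all but Ifi44l, against 38.6% of all genes. With each array centred on its median this held for 2 of the 5, Ifi35 and Samd9l, against 41.2%, because the range of Nmi then went from 2.57 to 2.60 and that of Rbm43 from 1.38 to 1.42. After quantile normalization the range was smaller for 4 of the 5, again all but Ifi44l, against 43.4%. After stimulation the highest line was RAW264.7 for Ifi44l and Nmi and L929 for Rbm43 and Samd9l. For Ifi35 it was NIH3T3 as deposited, by 0.04, and RAW264.7 with centred arrays, where NIH3T3 was the lowest by 0.38 below RAW264.7. After quantile normalization NIH3T3 was again the highest for Ifi35.

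At the 3-fold threshold that the study's design description gives, 2 of the 5 genes were higher in NIH3T3 (Ifi35 and Samd9l), where 0.476% of all genes were. In L929 all 5 were, against 0.893%, and in RAW264.7 3 were (Ifi44l, Ifi35 and Samd9l), against 0.617%. Ifi35 and Samd9l were at least 3-fold higher in all 3 lines, as were 0.311% of all genes. Apart from Ifi44l, the genes were higher in all 3 lines, 4 of 5 against 15.5%. Among these increases, that of Nmi in NIH3T3 (1.10) was below the 99th percentile of all genes in that line, 1.13. That of Rbm43 in RAW264.7 (0.54) was below the one there, 1.08. The choice of the genes used these changes, so the counts are a description. The median log2 change of the 5 genes was 1.15 (NIH3T3), 3.19 (L929) and 1.66 (RAW264.7), beside the all-gene medians above. As deposited, at 2-fold 4 of the 5 genes were higher in NIH3T3, where 1.73% of all genes were. Of the 4, Rbm43 and Nmi were below 2-fold with centred arrays (log2 changes of 0.88 and 0.83), and Nmi also after quantile normalization (0.97). At 5-fold 1 of the 5 genes, Ifi44l, was higher in RAW264.7, where 0.336% of all genes were.

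The line with the largest change was L929 for 4 of the 5 genes, as for 24.2% of all genes. For Ifi35 NIH3T3 and L929 had no settled order, since NIH3T3 was ahead by 0.07 as deposited and L929 by 0.20 with centred arrays. The smallest change was in RAW264.7 for Ifi35, Rbm43 and Samd9l (3 of 5, against 35.1% of all genes) and in NIH3T3 for Ifi44l and Nmi. The change in RAW264.7 was below the mean of the fibroblast lines by 2.88 for Samd9l, 1.57 for Ifi35, 1.21 for Rbm43 and 0.72 for Nmi on the log2 scale. For Ifi44l it was above that mean by 0.95. Between L929 and NIH3T3 the change differed by 4.24 for Ifi44l, 1.57 for Nmi, 1.55 for Samd9l and 1.21 for Rbm43, higher in L929 each time. Ranked from the largest increase among all genes, Samd9l had ranks of 23 (NIH3T3), 25 (L929) and 92 (RAW264.7). Ifi44l was 54 in L929, 45 in RAW264.7 and 18060 in NIH3T3.

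**Figure D2:**
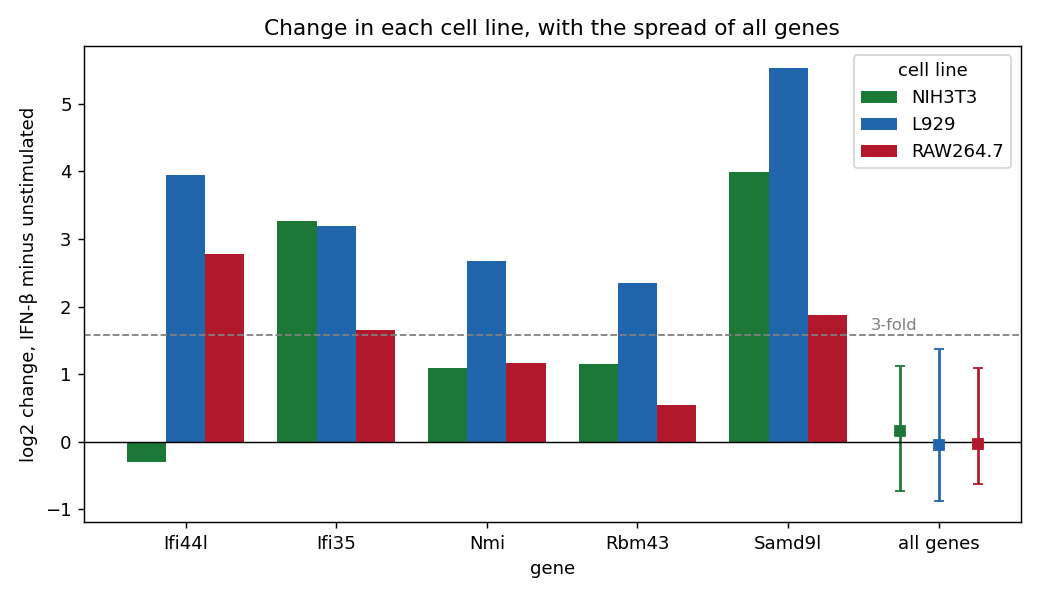
Log2 change with IFN-β (y axis, stimulated minus unstimulated array) of each gene (x axis) in the 3 cell lines. Squares with bars give the median and the 1st to 99th percentile of all 19938 genes, and the dashed line marks 3-fold; L929 bars are all above it, and the NIH3T3 bar of Ifi44l is at -0.30.

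The genes with the pattern nearest to each member were found by the root mean square distance between log2 levels over the 6 arrays, each gene centred on its own mean. The arrays share their processing and most of the distance comes from the cell line and the stimulation, so a short distance is a description only. Nearest to Ifi35 were Psmb10, an immunoproteasome subunit, at 0.19, Eif2ak2, the RNA-activated kinase PKR, at 0.23, and the ubiquitin ligase gene Rnf213 at 0.31. The log2 changes of Psmb10, in the order NIH3T3, L929, RAW264.7, were 2.78, 3.10 and 1.58, beside 3.26, 3.19 and 1.66 for Ifi35. Nearest to Samd9l were the cytosolic antibody receptor and ubiquitin ligase gene Trim21 at 0.42, Gm12185 at 0.46 and the cell death gene Xaf1 at 0.52. Trim21 had log2 changes of 3.68, 4.38 and 2.06 in the same order of lines, beside 3.99, 5.53 and 1.88 for Samd9l.

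Rbm43 lay nearest to the centrosomal protein gene Cenpj at 0.19, the signalling adaptor gene Dapp1 at 0.21 and Mitd1, which acts in cell division, at 0.22. In the same order of lines, Cenpj had log2 changes of 1.20, 1.88 and 0.23. Nmi lay nearest to Erap1, a peptidase that trims peptides for MHC class I, at 0.34, the surface protein gene Ly6e at 0.35 and the deubiquitinase gene Usp25 at 0.36. Between Nmi and its neighbour Rbm43 the distance was 0.64, and between Nmi and its partner Ifi35 it was 0.87. Ifi44l had no gene as close. The nearest were Tmem229b at 0.74, the macrophage pore-forming protein gene Mpeg1 at 0.81 and Oas3, a sensor of double-stranded RNA, at 1.06. Oas3 had log2 changes of 0.29, 3.12 and 1.77, and Tmem229b changes of 1.04, 3.72 and 1.40. Within the set, Ifi44l was 1.84 from Nmi and 2.82 from Samd9l.

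Genes of the ISGF3 pathway, feedback regulators among them, were tested across the 3 pairs of arrays with limma, cell line as a block, in the same fit over all 19938 genes. In that fit 0.732% of all genes rose at an adjusted p under 0.05 (146 genes) and 0% fell (0 genes, 254 at an unadjusted p under 0.05). Of 14 measured genes of the ISGF3 pathway 6 rose and 0 fell, with a median mean log2 change of 0.48 beside 0.03 for all genes. The 6 were the ISGF3 subunits Stat2 and Irf9, the transcription factor genes Irf1, Irf2 and Irf7, and Usp18, which removes ISG15 and dampens receptor signalling. Stat2 rose by 3.13 ± 0.21 (limma SE, n = 3 lines, limma adjusted p = 7.67e-05). Irf9 rose by 2.22 ± 0.39 (limma adjusted p = 0.0293, higher in 3 of 3 lines), with changes of 2.75 and 3.23 in the fibroblast lines NIH3T3 and L929 and of 0.68 in RAW264.7. Irf1 rose by 2.49 ± 0.23 (limma adjusted p = 0.000655), Irf2 by 1.23 ± 0.21 (limma adjusted p = 0.0291) and Usp18 by 5.56 ± 0.62 (limma adjusted p = 0.00164). The Irf1 value is that of its brightest probe set. Averaged over its probe sets, the rise was 1.51 (limma adjusted p = 0.0048). Irf9 was no longer called when NIH3T3 or L929 was left out (limma adjusted p = 0.268 and 0.134) or after quantile normalization (limma adjusted p = 0.102). Irf2 lost its call without L929 (limma adjusted p = 0.145), after quantile normalization (limma adjusted p = 0.062) and with centred arrays (limma adjusted p = 0.0685).

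The receptor and kinase genes did not pass. Mean log2 changes were -0.19 for Ifnar1, 0.07 for Ifnar2, 0.04 for Jak1 and 0.18 for Tyk2, with limma SEs between 0.16 and 0.21. The feedback inhibitor gene Socs1 had a mean log2 change of 0.78 (limma adjusted p = 0.203). With robust variances and a trend, 3 of the 6 calls held, those of Stat2, Irf1 and Irf2, and without the cell line in the model 0 did (6 at an unadjusted p under 0.05).

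A list of proteins reported to bind or act with members of the set was examined in the same fit. Of 12 genes 3 rose and 0 fell, with a median mean log2 change of 0.23. They were Trim21, reported as a ubiquitin ligase for Nmi, with a mean of 3.37 ± 0.35 (limma SE, adjusted p = 0.00128), the viral RNA sensor gene Ddx58 with 3.97 ± 0.48 (limma adjusted p = 0.0027), and Irf7 with 3.96 ± 0.36 (limma adjusted p = 0.000545). Each was higher in 3 of 3 lines. Fkbp5, an immunophilin that binds Ifi44 and Ifi44l, had a mean log2 change of -0.30 (limma adjusted p = 0.964). Mycn and Myc, the Myc proteins that bind Nmi, had means of 0.01 and 0.26, and Stat3 one of 0.76 (limma adjusted p = 0.101). Tlr4, the receptor for released Nmi and Ifi35, had a mean of 0.14. With robust variances and a trend 0 of the 3 calls held (limma adjusted p = 0.184 for Trim21, the lowest), with 4 genes higher at an unadjusted p under 0.05.

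Genes that flank the set were examined in the same fit. Of 16 nearest protein-coding neighbours in the RefSeq table, 2 on each side of each member, 14 were measured and 0 were called in limma, with 0 at an unadjusted p under 0.05 (the lowest was 0.137). Their median mean log2 change was -0.08. Some were low signals, where a missing change says little. Adgrl4, Tas2r134 and Hepacam2 lay below the lower quartile of every array. Ptgfr and Tnfaip6 did so in L929 and RAW264.7, and Rnd3 in RAW264.7. Tnfaip6, on the far side of Nmi from Rbm43, had log2 changes of 0.75, -0.19 and -0.13 in the order NIH3T3, L929, RAW264.7. Vat1 and Rpl27, on either side of Ifi35, had means of -0.32 and -0.10. In L929 Vat1 changed by -0.94 and Rnd2, beyond Vat1, by -1.01, both below the 1st percentile of all genes there, -0.87. In NIH3T3 and RAW264.7 Vat1 was at -0.06 and 0.04, and Rnd2 at 0.34 and -0.24. Ptgfr, next to Ifi44l, had changes of -0.95, 0.08 and 0.12, the first below the 1st percentile of all genes in NIH3T3, -0.73. Hepacam2, next to Samd9l, had a mean of 0.08.

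**Figure D3:**
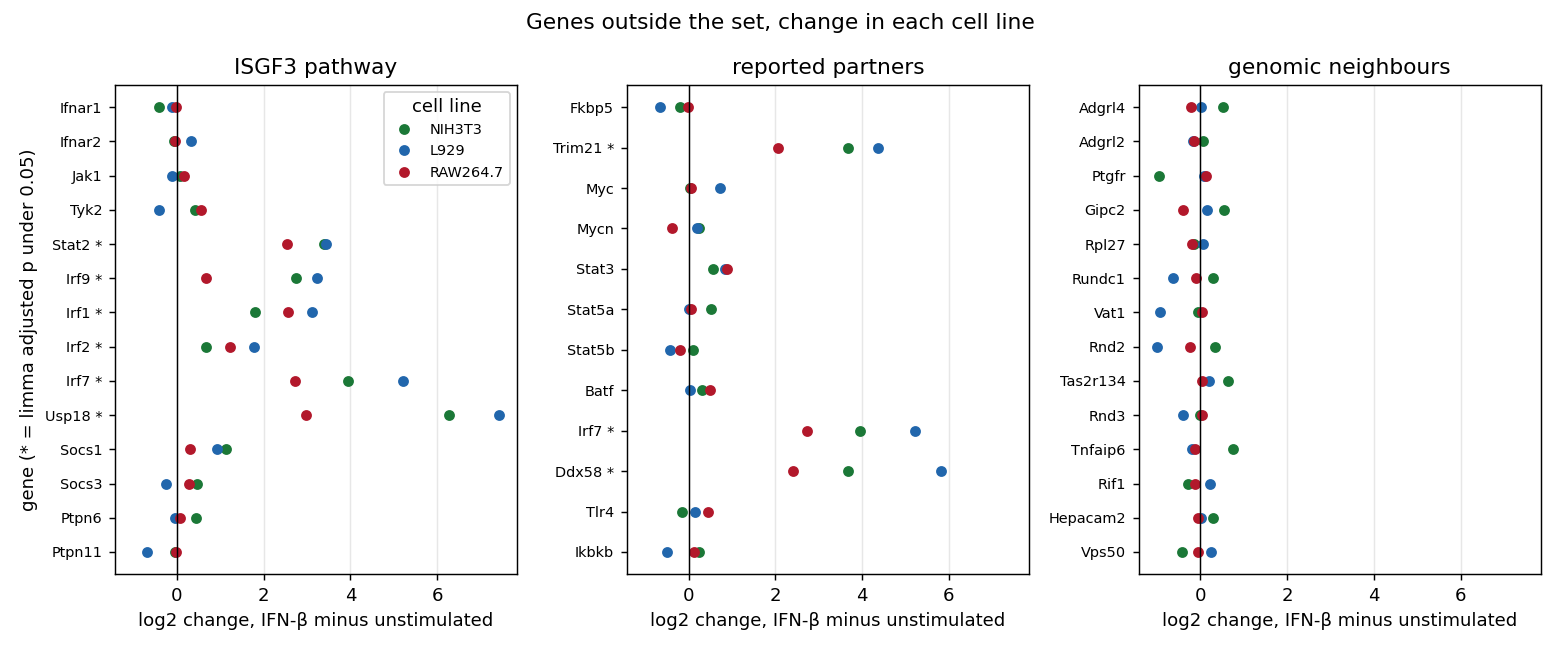
Log2 change with IFN-β (x axis) of single genes (y axis) of the ISGF3 pathway, of reported partners and of genomic neighbours, 1 point per cell line; stars mark a limma adjusted p under 0.05. Points of the 14 neighbours lie between -1.01 (Rnd2 in L929) and 0.75 (Tnfaip6 in NIH3T3), while those of Stat2, Irf7 and Usp18 lie above 2 in each line.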

How the data were processed

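Total RNA from 6 samples was hybridised to 1 Affymetrix whole-transcript array each, per the labels' protocols. The deposited log2 values were made by the authors with RMA, per the submitters' processing notes; its version and settings and the annotation build are not stated there. That the scale is log2 was judged from the range of the values. Probe sets that name 1 gene (21789 of 35557) were used, and for the 999 genes with several the brightest was kept. No filter on low levels was applied. Changes are the difference of the 2 arrays of a line. A linear model of cell line (the pairing, by the line shared) and treatment was fitted with limma 3.58.1 (R 4.3.3). Benjamini-Hochberg adjustment was over 19938 genes. The 3 lines stand in for replicates. The p-values and limma SEs weigh a gene's spread between these lines with a variance pooled over all genes (2 residual degrees of freedom, prior 7.87). The SE can thus be smaller than the 3 lines alone would give, as for Usp18 (limma SE 0.62, SD over the lines 2.30). The fit was tested on simulated data. The members, lists and tests were chosen with earlier results of these data known. Named were all members, the 3 genes nearest each, and genes of the lists, with values for those called and for the receptor and kinase genes; other list genes with values were chosen after their values were seen. Promoter sequences are from RefSeq (GRCm38.p6). A planned comparison of proteins was not run. Other steps used Python 3.11.15 with pandas 2.3.3, numpy 2.4.6 and matplotlib 3.10.9.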

Additional observations from a re-analysis of the deposited data

Results flagged for a closer look

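Ifi44l had a change of -0.30 on the log2 scale in NIH3T3, where 3.94 was measured in L929 and 2.77 in RAW264.7, and its sign set it apart. Both NIH3T3 levels were low signals and the change was within the 1st to 99th percentile range of all genes there. No increase was seen, and a small decrease cannot be told from no change with 1 pair. The change was -0.57 with centred arrays and -0.59 after quantile normalization. With 1 pair of arrays per line the difference between lines was not tested.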

How the results depend on the processing

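With 1 array per group, no change within a line has an error. Averaging over the probe sets of a gene could not move the values of the 5 genes, since each had 1 probe set. In limma 151 genes were then called higher in place of 146, and the mean log2 change of Irf1 was 1.51 in place of 2.49. Leaving out 1 of 3 lines cannot move a mean by the SD between lines, so shifts were not set against that SD. The mean log2 changes of the 5 genes kept their direction under each alternative run. Leaving out 1 line at a time, they ranged from 1.24 to 3.36 for Ifi44l (lowest without L929, highest without NIH3T3), 2.42 to 3.22 for Ifi35, 1.13 to 1.92 for Nmi, 0.84 to 1.75 for Rbm43 (lowest without L929) and 2.93 to 4.76 for Samd9l. At 2-fold 4 of the 5 genes were higher in NIH3T3 (1.73% of all genes) as deposited, and at 5-fold 1 in RAW264.7 (0.336% of all genes). With centred arrays Rbm43 and Nmi were below 2-fold in NIH3T3, and after quantile normalization Nmi was. Without the cell line as a replicate block 2 genes were called higher in limma in place of 146, and 0 of the ISGF3 list and 0 of the partner list, where 6 and 3 had an unadjusted p under 0.05. With robust variances and a trend the lists had 3 and 0 calls. After quantile normalization the ISGF3 list had 4 calls and with centred arrays 5, the partner list 3 under both. Leaving out 1 line, 116 to 218 genes were called higher and 0 to 5 lower, the 5 without RAW264.7, the ISGF3 list had 4 to 7 calls and the partner list 3. The causes were not tested. By correlation in place of distance, 1 of the 3 nearest genes was shared for Ifi44l and Samd9l and 0 for Nmi. With the shorter core GAAANNGAA, added after the data were seen, 4 genes had a promoter match in place of 1.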
